A study of Homo sapiens
Mus musculus with 8 samples.

Results

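The B cell receptor pairs a membrane antibody with the signal chains Cd79a and Cd79b. When the antibody binds, the kinases Syk, Blk and Btk and the adaptor Blnk carry the signal into the cell, and the surface proteins Ms4a1 (CD20), Cd22 and Cd72 tune it. A naive or memory B cell transcribes these genes, whereas a plasma cell, which secretes its antibody, is known to turn many of them down. The set described here was the 9 mouse genes Cd79a, Cd79b, Ms4a1, Cd22, Cd72, Syk, Btk, Blk and Blnk, fixed by name, out of 27998 mouse genes counted. Each name matched a single mouse gene, among them Cd79b (ENSMUSG00000040592), Ms4a1 (ENSMUSG00000024673), Blnk (ENSMUSG00000061132), Syk (ENSMUSG00000021457) and Cd22 (ENSMUSG00000030577).

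The genes were followed in the mouse line IVA12, which the study lists as B cells, against the mouse line EL4, listed as CD4 T cells. Both were untreated as far as the labels say. Equal parts of these lines and of the human T cell lines Jurkat and TALL-104 had been mixed and run on 3 Chromium kits, which give each captured messenger RNA a unique molecular identifier (UMI) at its 3′ end (3′ v3 and 3′ v2) or 5′ end (5′ v1). Of 8 labelled libraries 7 were used: the 3′ v3 kit gave 4, 5′ v1 gave 2 and 3′ v2 gave 1. In the study's sample summary 3′ v3 replicates 1 and 3 came from a first cell mixture and replicates 2 and 4 from a second, while each other kit had a mixture of its own.

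Cells were barcodes with at least 1000 UMIs of which over 80% were mouse. They were called EL4 when the UMIs of Lgals1, S100a6 and Perp together were at least 5 times those of Epcam, Cd24a, Ctss and Ckap4, and IVA12 when the reverse held. The rule gave 5829 IVA12 and 10905 EL4 cells of 18185 mouse barcodes, with 1451 left unassigned, and none of its 7 genes is in the set. The 11845 barcodes with over 80% human UMIs served as the measure of free RNA and misassigned reads, since a human cell makes no mouse transcript. Some of them may also hold a mouse cell beside a human one. Mouse UMIs made up 0.456% to 4.19% of their UMIs per library. Libraries held 24790710 to 251164949 UMIs and 166 to 1937 IVA12 cells. The median IVA12 cell had 24546 to 31126 UMIs in 3′ v3 and 5′ v1 but 10896 in 3′ v2. The only 3′ v2 library also stood apart in that 45.8% of its IVA12 cells had over 10% mitochondrial UMIs, against 3.98% to 16.7% elsewhere. No pair of libraries shared more than 9 barcodes of these lines.

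The labelled lineage held in part. In IVA12 cells the 17 measured B cell markers of 18 listed summed to 890 to 1210 UMIs per 1000000 of all UMIs in the cells (CPM), against 81.0 to 158 CPM in EL4. The 9 B cell markers with enough counts were tested between the lines, as set out below. In IVA12 4 were higher and 4 lower, so the list did not move one way. Of all genes tested 38.0% were higher and 39.0% lower. Ebf1, a B cell transcription factor, was higher by 5.83 on the log2 scale, whereas the transcription factors Spib and Pax5 fell by 1.00 and 0.99 (adjusted p = 0.00125 and 0.00675, edgeR). The sum came mostly from Pou2af1 (343 to 792 CPM), Cd79b and Ms4a1. Cd79b, Ms4a1 and Pou2af1 passed 10 CPM in every library (Pou2af1 in EL4 too), and the markers Blk and Cd83 (named here after their values were seen) were at 0 in all 5829 IVA12 cells. Plasma cell markers summed to 3580 to 7844 CPM in IVA12 and 314 to 527 CPM in EL4, and 11 of the 14 measured passed 10 CPM in every library, among them Jchain, Mzb1, Sdc1 and Xbp1, while 5 did so in EL4, among them Xbp1. Between the lines 13 of the 14 were higher in IVA12, against 38.0% of all genes tested, and Cd28, which T cells also use, fell by 5.38. T cell markers summed to 28.9 to 92.2 CPM in IVA12 and 2789 to 3487 CPM in EL4. Of the 14 tested between the lines, 13 were lower in IVA12 and 1, Cd6, was higher by 4.18. Cd2 passed 10 CPM in every library of both lines. In EL4 cells Cd4 had only 17 UMIs and Cd8a had 0, so the CD4 label of that line had little backing in these counts. Myeloid markers summed to 10.4 to 38.3 CPM in IVA12 and 17.6 to 101 CPM in EL4. At 0 in all IVA12 cells were 2 of the 17 T cell and 6 of the 15 myeloid markers measured.

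The 9 genes split into 4 that IVA12 cells expressed in every library (Cd79b, Ms4a1, Blnk and Syk) and 5 at or near 0 (Cd79a, Cd22, Cd72, Btk and Blk). Each of the 4 was detected in over 10% of IVA12 cells of every library, and none of the 5 reached 2%. The plot of levels by library shows the gap. Kits that count transcript ends give 1 UMI per captured end, so CPM values were set side by side between genes without dividing by length.

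**Figure D1:**
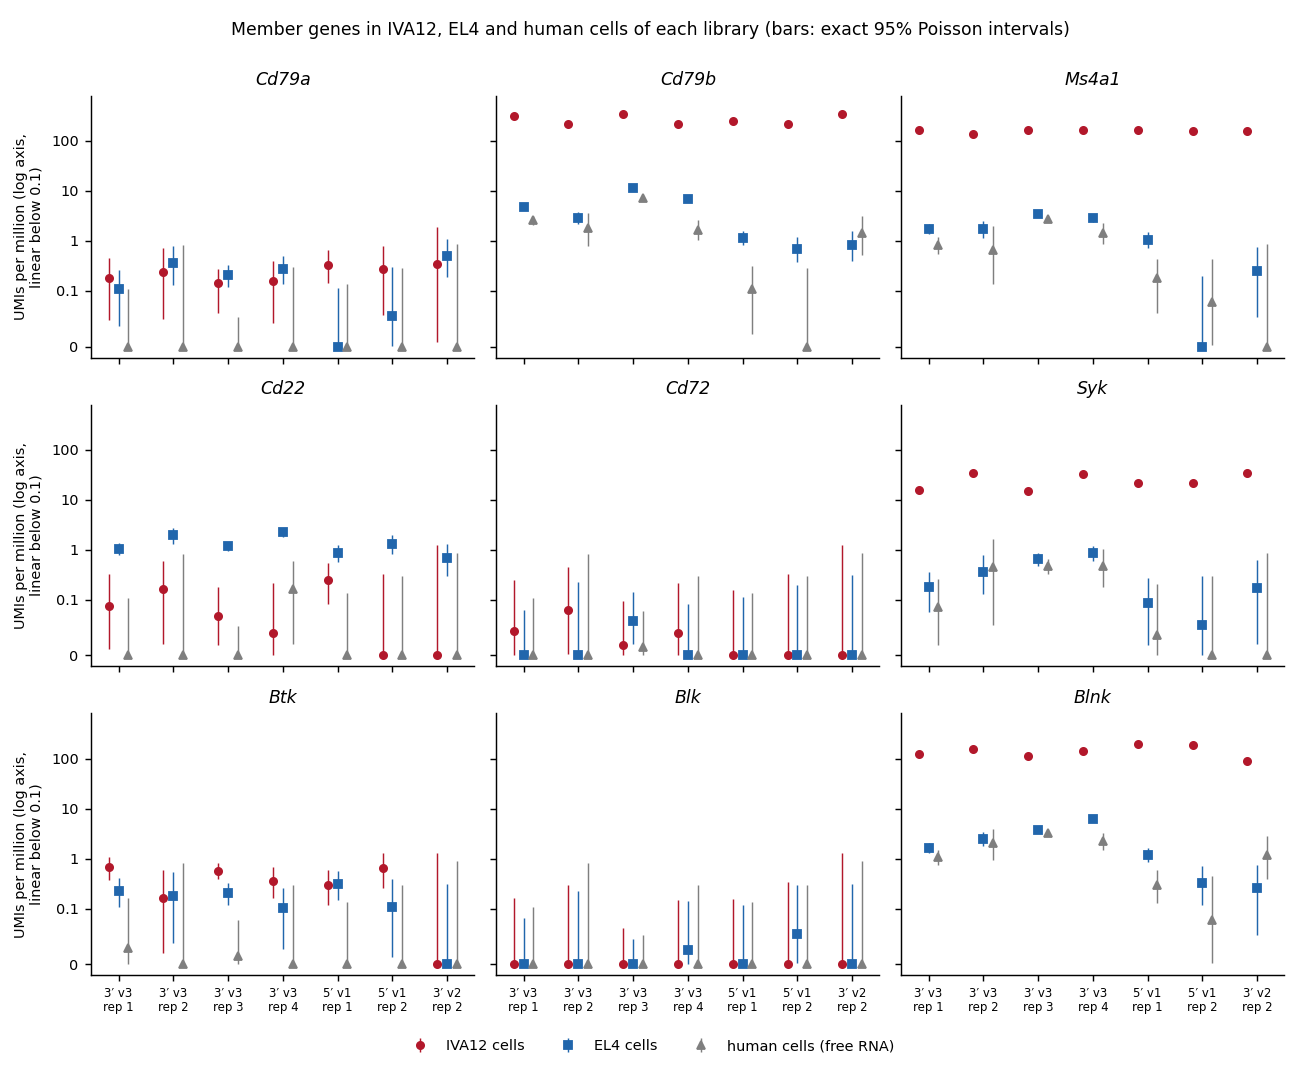
CPM (vertical log axis, linear below 0.1) of the 9 member genes in each of the 7 libraries (horizontal axis), for IVA12, EL4 and human cells, with exact 95% Poisson intervals that cover counting error only. Cd79b, Ms4a1, Blnk and Syk sat between 15.01 and 352 CPM in IVA12 cells, and the other 5 genes stayed under 1 CPM there.

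Cd79b, a signal chain of the receptor, was the most abundant member. Its level in IVA12 cells was 323, 214, 340 and 223 CPM in 3′ v3 replicates 1 to 4, 247 and 216 CPM in 5′ v1, and 352 CPM in 3′ v2. In EL4 cells it ran from 0.705 to 11.6 CPM with a median of 2.90 CPM. All 7 IVA12 values lay above all 7 EL4 values. The same held for 18.2% of all genes tested.

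Its partner chain Cd79a, which is needed to bring the receptor to the surface, was close to 0. In IVA12 cells Cd79a had 31 UMIs in all, each in a different cell, and 0.142 to 0.344 CPM per library. EL4 cells had 46 UMIs and 0 to 0.508 CPM. The ranges of the lines overlapped, and pooled levels were 0.201 CPM in IVA12 and 0.188 CPM in EL4. Human cells had 0 Cd79a UMIs in every library, which allows 0.0182 CPM over all of them. Against these 31 UMIs of Cd79a, the same IVA12 cells held 44084 UMIs of Cd79b.

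Ms4a1 codes for CD20, a membrane protein of mature B cells that modulates calcium entry. Its level over all IVA12 cells had the smallest ratio of highest to lowest library of the 4, though not in cells with few mitochondrial UMIs (described below), at 164, 140, 166 and 167 CPM in 3′ v3, 166 and 157 CPM in 5′ v1 and 159 CPM in 3′ v2. EL4 cells had from 0 to 3.50 CPM with a median of 1.74 CPM. No library of EL4 came near the lowest IVA12 value.

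Blnk, the adaptor that ties Syk to phospholipase C and Btk, was next. In IVA12 cells it had 125, 156, 113 and 145 CPM in 3′ v3, 194 and 188 CPM in 5′ v1 and 88.5 CPM in 3′ v2. Both 5′ v1 values lay above the other 5, and the 3′ v2 value was the lowest. EL4 cells had 0.254 to 6.24 CPM.

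Syk, the kinase that binds the phosphorylated signal chains, was lower. It had 15.6, 34.4, 15.01 and 33.05 CPM in 3′ v3, 21.7 and 22.1 CPM in 5′ v1 and 34.8 CPM in 3′ v2. Replicates 2 and 4 of 3′ v3, from the second mixture, lay above replicates 1 and 3. The share of all genes that split this way was not counted. EL4 cells had 0.0542 to 0.859 CPM.

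The other kinases were close to 0. Btk, which activates phospholipase C downstream of Syk, had 72 UMIs in IVA12 cells and 46 in EL4 cells, with 0 to 0.667 CPM per library in IVA12 and 0 to 0.313 CPM in EL4. Human cells had 2 Btk UMIs in all. Blk, a Src family kinase of B cells, had 0 UMIs in 5829 IVA12 cells, which allows up to 0.0194 CPM and a share of up to 0.0515% of cells with a UMI, for counting error only. EL4 cells had 2 Blk UMIs.

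Of the inhibitory surface receptors, Cd72 had 4 UMIs in IVA12 cells and 5 in EL4 cells. Cd22, a sialic acid-binding receptor that recruits phosphatases in B cells, ran the other way, with more in the T cell line. It had 0.677 to 2.22 CPM in EL4 cells (324 UMIs) and 0 to 0.251 CPM in IVA12 cells (15 UMIs). Every EL4 value lay above every IVA12 value, as for 19.7% of all genes tested in that direction. Human cells had 2 Cd22 UMIs in all. The EL4 signal was spread thinly, over 281 of 10905 cells with at most 5 UMIs in a cell.

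The difference between the lines was tested on the summed counts of each line in each library, with edgeR's quasi-likelihood test, library as a block and Benjamini-Hochberg adjustment over 11727 genes. Libraries of a mixture share 1 cell suspension, so they are not independent samples of the lines. The spread behind these p-values holds technical spread within a mixture and differences between mixtures and kits. Of the genes tested 4453 were higher in IVA12 (38.0%) and 4577 lower (39.0%), and 1276 (10.9%) were higher by at least 4-fold. Of the 9 members, 5 had enough counts to be tested, of which 4 were higher and 1 lower in IVA12. Cd79a, Cd72, Btk and Blk did not pass the filter on low counts.

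Ms4a1 had the largest fold, 6.60 on the log2 scale (SE 0.44, adjusted p = 2.36e-07), which ranked 12 among all genes tested. Cd79b was higher by 6.27 (SE 0.46, adjusted p = 5.18e-07) and ranked 40. Blnk was higher by 6.05 (SE 0.46, adjusted p = 6.26e-07) and ranked 83. Syk was higher by 5.85 (SE 0.35, adjusted p = 1.19e-07) and ranked 160. The differences among these 4 estimates were not tested. Cd22 fell by 3.77 (SE 0.42, adjusted p = 1.20e-05) in IVA12 against EL4. All 5 calls held in each of 19 other settings. Btk was called higher in IVA12 in 2 of them, by 1.12 without the filter on low counts (adjusted p = 0.0264) and by 1.36 in the first 3′ v3 mixture alone (adjusted p = 0.0174).

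The denominator of these folds is a low level in EL4 cells, in which free RNA can take part. EL4 cells exceeded human cells in 6 of 7 libraries for each of Cd79b, Ms4a1, Blnk and Syk. The plot of EL4 against human cells shows these levels. Syk counts were few outside 3′ v3, with at most 3 UMIs in EL4 cells and 1 in human cells per library. Those libraries therefore say little about Syk. Ms4a1 in 3′ v2 also rested on few counts, 3 UMIs in EL4 cells against 0 in human cells. Cd79b reached 11.6 CPM in EL4 cells and 7.36 CPM in human cells of 3′ v3 replicate 3, while 5′ v1 replicate 2 had 0.705 and 0 CPM. In 3′ v2, EL4 cells were below human cells for Cd79b (0.846 against 1.43 CPM) and Blnk (0.254 against 1.19 CPM). In 3′ v3 replicate 4 a few EL4 cells held most of the signal, since cells with 5 or more UMIs of Cd79b carried 72.6% of its 277 UMIs. That library also held 6 EL4 barcodes with over 100000 UMIs. Without such barcodes in any library, Cd79b was higher by 6.54 and Blnk by 6.28. How much of the EL4 level is free RNA or barcodes with more than 1 cell was not tested.

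**Figure D2:**
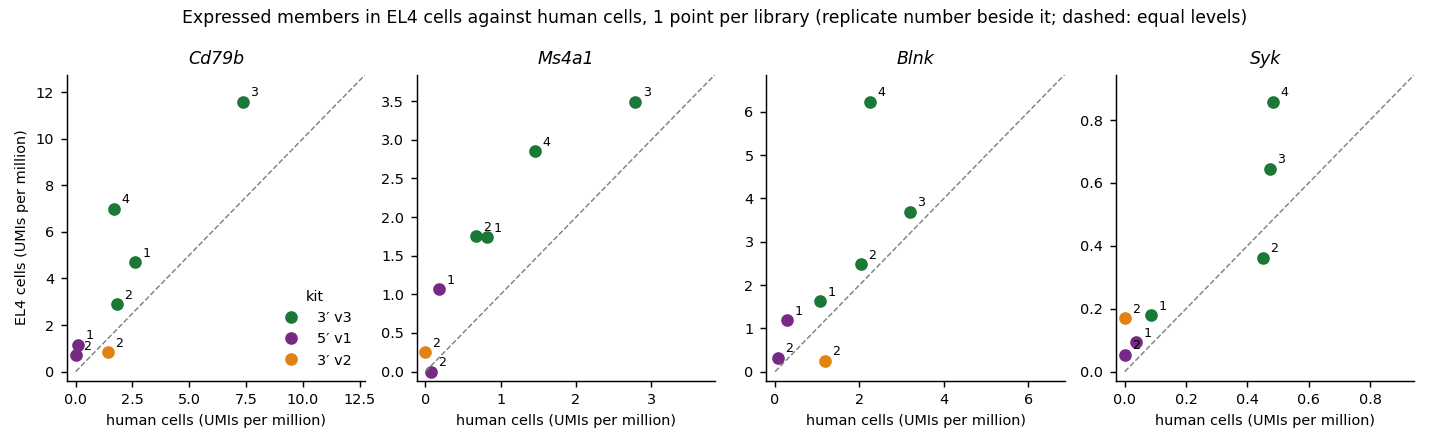
Level of the 4 expressed members in EL4 cells (vertical axis, CPM) against human cells of the same library (horizontal axis, CPM), 1 point per library coloured by kit with its replicate number. Points above the dashed line of equal levels are libraries in which EL4 cells had more, and 3′ v3 libraries, such as replicate 3 with 11.6 and 7.36 CPM of Cd79b, lay farther out than 5′ v1 libraries.

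Detection per cell was high for 3 of the 4 expressed members. Among IVA12 cells Cd79b had at least 1 UMI in 87.8% to 97.6% of cells per library, Ms4a1 in 80.1% to 89.0%, Blnk in 57.8% to 89.0% and Syk in 31.3% to 50%. In EL4 cells, with a median of 22812 to 27968.5 UMIs, the shares were 1.52% to 16.01%, 0% to 5.13%, 0.413% to 6.26% and 0.138% to 1.55%. Human cells, with 4351 to 18053 UMIs at the median, had 0% to 10.6% for Cd79b and 0% to 0.719% for Syk.

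After each cell was thinned to 5000 UMIs, which left out 529 shallower IVA12 cells, the shares fell to 63.1% to 78.4% for Cd79b, 49.6% to 56.1% for Ms4a1, 33.8% to 60.2% for Blnk and 8.01% to 14.96% for Syk. EL4 cells at the same depth, without 2164 shallower cells, had 0.443% to 3.70% for Cd79b and at most 0.348% for Syk. At equal depth the shares of Cd79b in 3′ v3 replicates 1 and 3 (75.1% and 78.4%) and in 3′ v2 (75.2%) exceeded those of the other 4 libraries, which lay between 63.1% and 65.1%. Blnk ran in part the other way, with 42.2% and 40.9% in 3′ v3 replicates 1 and 3 and 60.2% and 54.3% in 5′ v1.

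**Figure D3:**
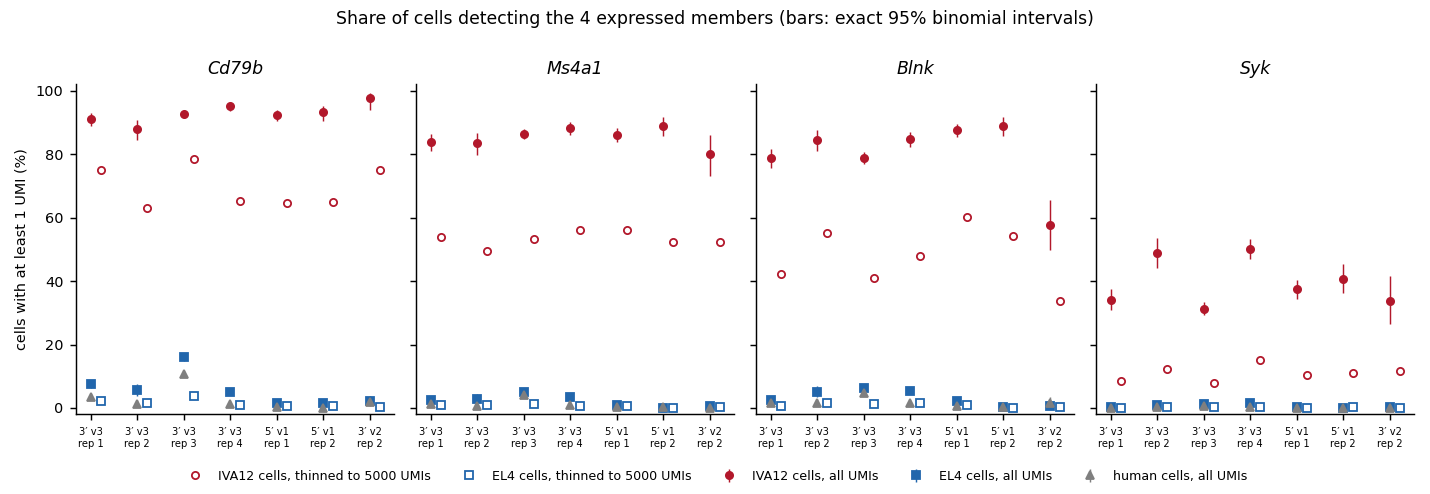
Share of cells with at least 1 UMI (vertical axis, percent) of the 4 expressed members in each library, for IVA12, EL4 and human cells with all UMIs (filled, exact 95% binomial intervals) and for IVA12 and EL4 cells thinned to 5000 UMIs (open). IVA12 shares of Cd79b ran from 87.8% to 97.6% with all UMIs and from 63.1% to 78.4% when thinned.

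Most IVA12 cells carried several of the 4 genes. With all UMIs, 19.9% to 43.0% of IVA12 cells per library had all 4 and another 35.4% to 51.3% had 3 of them. None of the 4 was seen in 200 of 5829 IVA12 cells (3.43%), and 181 of these had fewer than 5000 UMIs. Cd79b and Ms4a1 were found together in 33.9% to 43.0% of thinned cells, and the product of their single shares was 31.3% to 41.8%.

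Across thinned IVA12 cells within a library, Pearson's r between Cd79b and Ms4a1 was 0.144 to 0.530, with 0.530 in 3′ v2. Every other pair of the 4 lay between −0.0874 and 0.105. These values share library, depth and cells and are given as a description. The variance over the mean of thinned counts was 1.24 to 1.73 for Cd79b in the 6 libraries of 3′ v3 and 5′ v1 and 3.08 in 3′ v2, and 1.16 to 1.37 and 3.56 for Ms4a1.

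Cells rich in mitochondrial UMIs, a common sign of poor cell state, were where Cd79b and Ms4a1 stood highest. IVA12 cells of each library were split at 10% mitochondrial UMIs, a comparison added after seeing the data, and levels were taken as CPM of non-mitochondrial UMIs. Cd79b was higher in the cells over 10% in 7 of 7 libraries, at 400 to 1219 against 217 to 354 CPM. Ms4a1 was also higher in 7 of 7, at 239 to 647 against 84.6 to 173 CPM. Blnk was higher in 1 of 7, and Syk in 5 of 7.

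With library as a block, edgeR gave a log2 difference of 1.12 for Cd79b (SE 0.16, adjusted p = 1.96e-06) and of 1.15 for Ms4a1 (SE 0.18, adjusted p = 6.26e-06). Blnk fell by 0.55 (SE 0.14, adjusted p = 0.00185), and Syk had a difference of 0.28 that did not pass (adjusted p = 0.240). Of 8744 genes tested 46.0% were called, with 22.3% higher and 23.8% lower, so that a call here is common. The cells over 10% were also shallow, with a median of 5365 to 12488 UMIs per library against 25296 to 33804 in the rest. The part of depth in these differences was not tested.

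The gap was widest in 3′ v2, where 76 of 166 IVA12 cells were over 10%. There Cd79b had 1219 CPM (exact 95% Poisson interval 1114 to 1332) in these cells and 223 (205 to 243) in the other 90, and Ms4a1 had 647 (571 to 730) and 84.6 (73.3 to 97.2). The 3′ v2 levels over all IVA12 cells are sums over both kinds of cell. Among cells at or under 10%, Ms4a1 in 3′ v2 was below each of the other libraries, which had 148 to 173 CPM. Without 3′ v2 the differences were 0.87 for Cd79b and 0.85 for Ms4a1, and both were still called.

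**Figure D4:**
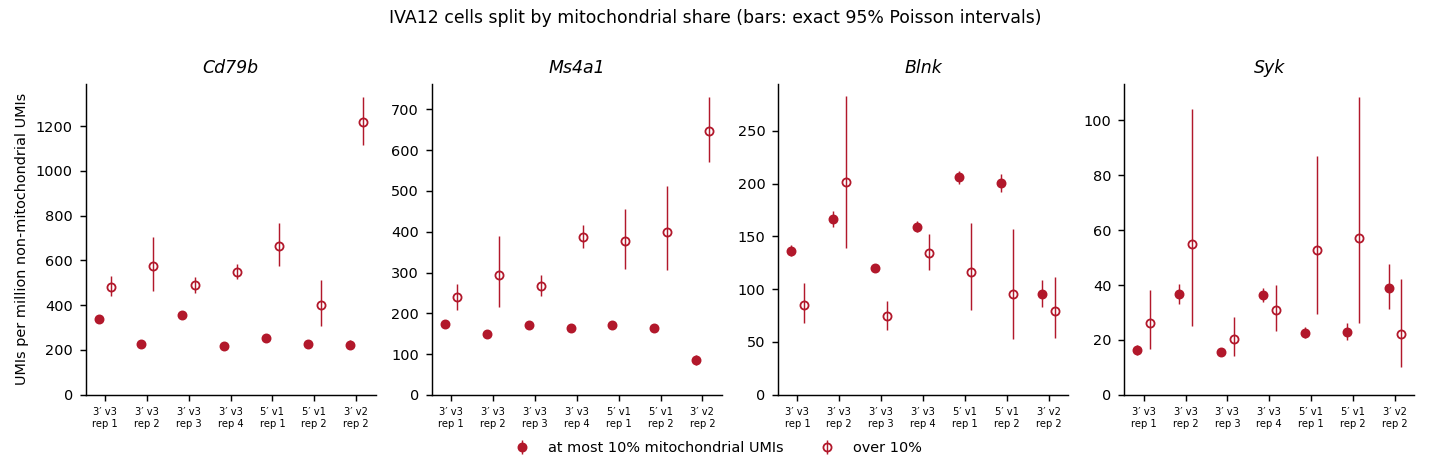
Level of the 4 expressed members (vertical axis, CPM of non-mitochondrial UMIs) in IVA12 cells with at most 10% (filled) and over 10% (open) mitochondrial UMIs in each library, with exact 95% Poisson intervals. Open points lay above filled ones in 7 of 7 libraries for Cd79b and Ms4a1 and in 1 of 7 for Blnk.

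Whether the kit changed these levels was asked within IVA12 cells, 4 libraries of 3′ v3 against 2 of 5′ v1, and kit and mixture cannot be told apart in this comparison. Of 12542 genes tested 1138 were called (9.07%), 545 higher (4.35%) and 593 lower (4.73%) in 3′ v3, and of the 5 members tested none was called. DESeq2 called 885 higher and 643 lower, and no member. Blnk came closest, with a difference of −0.48 (SE 0.14, unadjusted p = 0.0123, adjusted p = 0.0833 by edgeR), the only member with an unadjusted p under 0.05. Cd79b had 0.32 (SE 0.32), Ms4a1 0.03 (SE 0.20), Syk 0.15 (SE 0.31) and Btk 0.20 (SE 0.66). For Ms4a1, the 4 libraries of 3′ v3 averaged 159 ± 12.8 CPM (SD, n = 4) and the 2 of 5′ v1 averaged 162 ± 6.14 CPM (SD, n = 2). The corresponding means of Blnk were 135 ± 19.1 and 191 ± 4.73 CPM.

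Within 3′ v3 the mixtures could be compared with the kit held constant, in a test added after seeing the data. This test called 7959 of 11775 genes (67.6%, with 34.1% higher and 33.5% lower in the second mixture), so a call says little about any member. The fitted differences are on sums rescaled by edgeR (TMM, set out below), and the CPM beside them are not, so their sizes need not match. Each mixture was 1 cell suspension, so SE and p here hold the spread between libraries of a suspension and none between mixtures. In the second mixture Cd79b fell by 0.85 in the fit (SE 0.07, adjusted p = 5.56e-06). Its mean was 331 CPM in the first mixture and 219 CPM in the second. Ms4a1 fell by 0.35 in the fit (SE 0.09, adjusted p = 0.00539). Its CPM overlapped, at 164 and 166 in the first mixture and 140 and 167 in the second. Syk was higher by 0.89 (SE 0.08, adjusted p = 8.70e-06), at 15.01 and 15.6 CPM in the first and 33.05 and 34.4 CPM in the second. Btk fell by 1.29 (SE 0.45, adjusted p = 0.0286), which DESeq2 did not call (adjusted p = 0.170). Blnk differed by 0.09 in the fit (SE 0.08, adjusted p = 0.332). Its CPM were 125 and 113 in the first mixture and 156 and 145 in the second. Among 3′ v3 libraries the spread of Cd79b and Syk thus lay mostly between mixtures.

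The line difference was also compared between 3′ v3 and 5′ v1 libraries, where again kit and mixture cannot be told apart. Tested as an interaction over 13638 genes, its log2 value was called lower in 3′ v3 than in 5′ v1 for 5 of 7 members tested. Of all genes 30.1% were called in either direction and 17.2% in this direction. The filter on low counts went by kit and line here, and Cd79a and Btk passed it, unlike in the test between lines. The log2 differences were −2.45 for Blnk (SE 0.57, adjusted p = 0.00950), −2.38 for Cd79b (SE 0.48, adjusted p = 0.00471), −2.63 for Syk (SE 0.87, adjusted p = 0.0455) and −1.88 for Ms4a1 (SE 0.56, adjusted p = 0.0298). Cd79a had −3.998 (SE 1.15, adjusted p = 0.0256) on few counts, with 1 UMI in EL4 cells of both 5′ v1 libraries together and 11 in their IVA12 cells. In 3′ v3 replicates 2 to 4 Cd79a was higher in EL4 (0.362, 0.207 and 0.278 CPM) than in IVA12 cells (0.243, 0.142 and 0.158 CPM). Replicate 1 went the other way (0.112 and 0.178 CPM). The EL4 counts in 5′ v1 replicates 1 and 2 were also few for Syk (3 and 1 UMIs) and for Ms4a1 (34 and 0 UMIs). Btk (0.68, adjusted p = 0.551) and Cd22 (−1.45, adjusted p = 0.299) were not called.

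In the per-library ratios of IVA12 to EL4 levels, Cd79b was 29.3 to 74.0 times higher in 3′ v3, 213 and 307 times in 5′ v1 and 416 times in 3′ v2. The IVA12 levels of the 4 expressed members were not called different between these kits. Each of the 4 was higher in both EL4 and human cells of every 3′ v3 library than of either 5′ v1 library. The share of all genes for which this holds was not counted. All mouse UMIs together made up 1.44% to 4.19% of the UMIs of human cells in 3′ v3 and 0.456% and 0.590% in 5′ v1. Within 3′ v3 the order of libraries by EL4 and by human level was the same for Syk but not for Cd79b, where replicate 4 had 6.997 CPM in EL4 and 1.70 CPM in human cells and replicate 1 had 4.69 and 2.62 CPM. In EL4 cells Cd79b averaged 6.54 ± 3.76 CPM (SD, n = 4) over 3′ v3 libraries against 0.932 ± 0.321 CPM (SD, n = 2) over 5′ v1 libraries. Human cells of the same libraries had 1.70 to 7.36 and 0 to 0.110 CPM. For Blnk, EL4 cells had 3.51 ± 2.01 and 0.758 ± 0.612 CPM. The part of free RNA in this difference was not tested. The calls depended on single libraries, since leaving out 5′ v1 replicate 1 kept only Ms4a1 and Blnk and leaving out replicate 2 kept only Cd79a, and 3 members remained called with DESeq2. The differences kept their sign when 1 library was left out, at −2.71 to −2.08 for Cd79b, −3.77 to −1.96 for Blnk, −3.14 to −2.09 for Syk, −9.02 to −1.18 for Ms4a1 and −6.72 to −2.52 for Cd79a where it was tested.

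The rest of the receptor pathway, taken from a list of 81 other genes, did not follow the 4 expressed members. Of the list, 70 genes were in the gene list counted, and 61 had enough counts to be tested. The 11 antibody chains on the list were not analysed here. In IVA12, 15 of the 61 were higher, 32 were lower and 14 were not called. Over the other settings 14 to 23 were higher and 27 to 34 lower, with 23 higher in the first 3′ v3 mixture alone. Their median log2 difference was −0.29, against −0.00 (−0.00408) for all genes tested, of which 38.0% were higher and 39.0% lower.

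The genes that rose most were Fcrl1, Lyn and Cd81. Fcrl1, a receptor-like protein of B cells, was higher by 5.76 (SE 0.40, adjusted p = 3.23e-07), with a median of 3.37 normalised CPM in IVA12 and 0.0526 in EL4. Lyn, the Src family kinase that starts the signal in most B cells, was higher by 5.62 (SE 0.37, adjusted p = 2.15e-07), at a median of 11.4 against 0.0990 normalised CPM. The other 2 kinases on the list that start or restrain the signal, Fyn and Csk, were not called. Cd81, a membrane protein of the co-receptor, was higher by 5.51 (SE 0.26, adjusted p = 2.89e-08), at a median of 166 against 2.29 normalised CPM. Cr2, a complement receptor of the co-receptor, did not pass the filter, with 13 UMIs in all IVA12 cells.

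The genes that fell most were Prkcb, Rasgrp1 and Vav3. Prkcb, the protein kinase C that leads to NF-kB, fell by 6.70 (SE 0.50, adjusted p = 5.87e-07), at a median of 0.551 normalised CPM in IVA12 and 67.8 in EL4. Rasgrp1, which activates Ras on diacylglycerol, fell by 6.39 (SE 0.43, adjusted p = 2.70e-07). Vav3, a guanine nucleotide exchange factor, fell by 6.38 (SE 0.28, adjusted p = 2.23e-08).

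By role, 8 of 11 genes of the NF-kB arm were lower and 2 higher, with a median log2 difference of −0.34. Of all genes tested 39.0% were lower and 38.0% higher. Among the genes that the list groups as inhibitors 7 of 10 were lower and 2 higher, with a median of −1.06. Fcrl1 was 1 of the 2 higher, and its role was not tested. Of the lipid signalling genes 6 of 9 were lower and 3 higher, of the Ras and MAP kinase arm 4 of 9 were lower and 3 higher, and of the calcium and NFAT genes 3 of 8 were lower and 1 higher. Among adaptors and exchange factors 3 of 9 were lower and 2 higher. The T cell receptor counterparts, a list of 9 signal chains, kinases and adaptors, were all 9 lower in IVA12, with a median of −6.24. Cd3d fell by 7.47 (SE 0.58, adjusted p = 7.04e-07), Lat fell by 7.19 (SE 0.62, adjusted p = 1.62e-06) and Cd3e fell by 6.70 (SE 0.53, adjusted p = 8.57e-07).

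**Figure D5:**
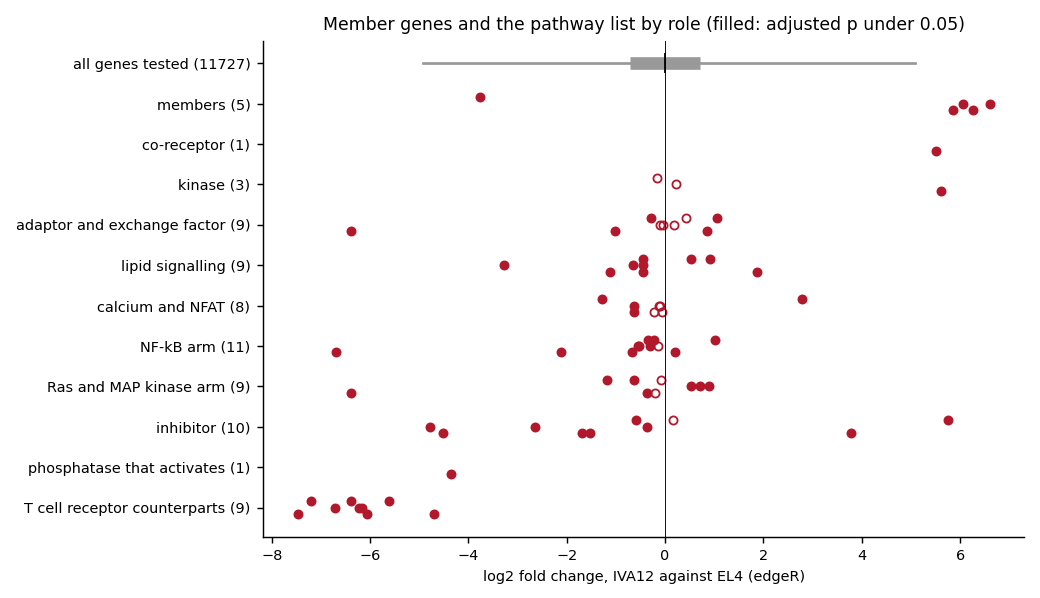
Fitted log2 fold change of IVA12 against EL4 (horizontal axis) for the tested members, the pathway genes by role and the T cell receptor counterparts, with the number tested in brackets, filled at adjusted p under 0.05. The bar for all 11727 genes spans the quartiles and its line the 5th to 95th percentiles, and 4 of the 5 tested members lay between 5.85 and 6.60.

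Genes whose level over the 14 sums was most like the summed level of the 9 members were Mpzl2, Myh14, Gpm6a, Eef1a2 and Gyltl1b, with Pearson's r of log2 CPM from 0.996 to 0.998 over 14 sums of the 7 libraries. The sums fall into 2 groups, the lines, so these values follow mostly the difference between lines. Within the 7 IVA12 sums, r was 0.35 for Mpzl2, 0.89 for Myh14, −0.61 for Gpm6a, 0.32 for Eef1a2 and 0.39 for Gyltl1b.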

How the data were processed

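The authors deposited whole-number UMI counts for every barcode and gene. Reads had been downsampled with seqtk to a similar depth per cell, and Cell Ranger 3.0.2 produced the counts on a joint hg19 and mm10 reference, library by library. Depth per library was 24790710 to 251164949 UMIs. The first 3′ v2 replicate was not analysed here. Gene locations and sequences were not used here.

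UMIs of the cells of each line were summed per library without the 7 genes that assign cells. Sums were tested in edgeR 4.0.16 (R 4.3.3) with TMM scaling, filterByExpr, glmQLFit and glmQLFTest, at adjusted p under 0.05, and SE was the difference divided by the root of F. DESeq2 1.42.0, upper-quartile scaling, no filter and other cell filters were alternatives. Normalised CPM are CPM of these sums after TMM scaling. Shares carry exact 95% binomial intervals, levels exact 95% Poisson intervals, and 0 counts a limit of 3 counts, all for counting error only. Where a symbol had several identifiers in a list the first was used. No doublet caller was run. The assignment rules leave out barcodes with nearly equal parts of 2 lines or species, but not all barcodes with more than 1 cell. Replicate numbers follow accession order and pair nothing.

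Described were all 9 members, and of other lists counts and at most 3 called genes with the largest differences in each direction (for the pathway at most 2 per role). Members and lists were chosen with earlier results of these data known. Scripts were tested on simulated data.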

Additional observations from a re-analysis of the deposited data

Results flagged for a closer look

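Among 24 sets of 4 3′ v3 values of the members, 1 held a value far from the rest by Dixon's criterion, which chance gives in about 1 of 20. It was Ms4a1 in IVA12 cells of 3′ v3 replicate 2, at 140 CPM against 164 to 167 CPM in the other 3 libraries. Leaving out this library gave a log2 difference between lines of 6.68 for Ms4a1.

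The difference between IVA12 and EL4 was smaller in 3′ v3 than in 5′ v1 by edgeR's interaction test for Cd79a (−3.998), Cd79b (−2.38), Ms4a1 (−1.88), Syk (−2.63) and Blnk (−2.45 on the log2 scale). The levels in EL4 and human cells, which also differed between these kits, are given above, and their part was not tested.

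Barcodes with fewer than 100 UMIs, which entered no comparison, held members above the limit that 0 counts allow (0.117 CPM over 25557763 UMIs). Pooled levels were 79.1 CPM for Cd79b, 52.9 CPM for Blnk, 34.3 CPM for Ms4a1 and 7.12 CPM for Syk. Levels of the rest were 0.313 CPM for Cd22, 0.274 CPM for Btk and 0.157 CPM for Cd79a.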

How the results depend on the processing

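The 5 member calls between lines kept their direction and their side of the threshold in each of 19 other settings, with log2 differences of 5.23 to 7.002 for Cd79b, 5.78 to 7.44 for Ms4a1, 4.84 to 6.75 for Blnk, 4.88 to 6.39 for Syk and −4.70 to −3.46 for Cd22. The interaction by kit was less stable, and the cause was not tested. It called 5 members lower, but 3 with DESeq2 and 3 without barcodes over 100000 UMIs (a setting added after seeing the data), and 1 to 5 when 1 library was left out, with 1597 to 4302 genes called against 4101. The fewest came without 5′ v1 replicate 1 (1736 genes, 2 members) and replicate 2 (1597 genes, 1 member). Without 3′ v2, Cd79a was no longer tested. In IVA12 cells by kit, leaving out 1 library called 19 to 1163 genes against 1138, with the lowest counts without 5′ v1 replicate 1 (19) and replicate 2 (44), which leave 1 library of that kit, assumed to vary like the others. Without 3′ v3 replicate 2 or 4 it called 654 or 722. No member was called in any of these settings. The comparisons of mixtures and of mitochondrial share kept their member calls, except Btk under DESeq2. Over 10% of IVA12 cells of every library detected 4 members in the main setting and 3 after thinning. The lines were compared within libraries, and without library as a block 8029 genes were called against 9030, with the same 5 member calls. Across kits, no paired analysis was possible because replicates were numbered by accession, which ties no library of one kit to one of another. The depth of 3′ v2 (24790710 UMIs, 166 IVA12 cells) limits what its single library can show.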

Other observations

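The 1451 mouse barcodes that met neither line's rule carried the 4 expressed members, at 112 to 225 CPM per library for Cd79b and 53.9 to 132 CPM for Blnk. Their pooled levels were 185 CPM for Cd79b, 98.7 CPM for Ms4a1, 79.2 CPM for Blnk and 15.6 CPM for Syk, against 285, 163, 141 and 21.5 CPM in IVA12 cells. These barcodes were shallow, with 1022 of 1451 under 5000 UMIs.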
